A study of Mus musculus with 22 samples.

Results

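The microglia and macrophage genes described here were 31 genes named by symbol, and all 31 were found among the 29367 genes of the count table. They are best known from cells other than the one that was targeted, and their transcripts were treated as RNA of another cell type that was carried into an astrocyte ribosome pulldown. The RNA came from 2 regions of the mouse optic nerve, the unmyelinated optic nerve head (ONH) and the myelinated optic nerve proper (ONP), taken 7 or 30 days after microbeads were injected into the eye to raise intraocular pressure (IOP). The mice were a cross of B6J.129(Cg)-Rpl22tm1.1Psam/SjJ, the ribotag allele that adds an HA tag to the ribosomal protein Rpl22 after Cre recombination, with B6.Cg-Tg mice of the line (GFAP-Cre) 73.12Mvs/J, in which a mouse Gfap promoter drives constitutive Cre. The mice were aged 3 to 4 months, per the study's methods, and the labels call them WT. The 4 groups were the ONH at 7 days (n = 4 pools), the ONP at 7 days (n = 4 pools), the ONH at 30 days (n = 7 pools) and the ONP at 30 days (n = 7 pools). All of them carried the tag, the Cre and the microbeads, so every comparison below is between injected eyes, and untreated animals were not analysed here. Each library held tissue pooled from 4 mice, 2 males and 2 females. Per the study's methods, ONH and ONP were taken from the same mice. At 30 days the ONH and ONP libraries of the same number were taken to be the same pool of mice, which the labels do not state. The columns of the 7 day libraries could be assigned to their group only, and are named by the number in the column.

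Library totals ran from 16292489 to 33307092 estimated counts, so 3 counts correspond to 0.0901 to 0.184 CPM, the count scaled to a common library size. CPM values below were scaled by the trimmed mean of M-values (TMM), and floors and intervals of this kind cover counting error only. The label of the cell type was checked against 12 astrocyte genes, all of which had more than 3 counts in every library of every group, with Gfap the most abundant in each group and summed levels from 15278 to 38793 CPM. Whole optic nerve would pass that check too, and 10 oligodendrocyte genes summed to 13870 to 110811 CPM in the same libraries, above the astrocyte genes in every ONP library at 7 days (82576 to 110811 against 17718 to 24882 CPM). Within a group each pool held different mice, so p-values measure the spread between pools of animals. The regions shared mice, so p-values between regions without the pairing treat libraries of shared animals as independent.

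Microglia are the resident macrophages of the nervous system, and optic nerve tissue holds them beside macrophages of the vessels and meninges. They depend on the receptor Csf1r and on the transcription factors Spi1 (PU.1) and Irf8, and they survey the tissue through receptors such as P2ry12, which senses ADP, and Cx3cr1, the fractalkine receptor. When they take up myelin or dying cells, signals through Trem2 and its adaptor Tyrobp accompany higher lysosomal and lipid handling genes and lower surveillance receptors. In this pulldown of tagged astrocyte ribosomes such transcripts were treated as background RNA, and their source was not tested. In bulk samples of this kind fewer cells of a type and less RNA per cell cannot be told apart.

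RefSeq start sites (GRCm38.p6) were available for 23 of the 31 genes, with 30 promoter windows in all. The windows, 250 bases before to 50 after each start, were searched on either strand for letters bound by PU.1. The 6 letters GAGGAA were in 14 of the 30 windows (46.7%) and in 28.3% of 32851 windows of all genes. Windows of the same gene can overlap, and the 14 belonged to 13 of the 23 genes. The longer run GAGGAAGT, which contains the shorter run, was in 2 of 30 (6.67%) and in 3.20% of all windows. GGAANNGAA, a spacing read by PU.1 together with an IRF factor, which can overlap the other letters at GGAA, was in 2 of 30 (6.67%) and in 8.24% of all windows. Ctss (cathepsin S, a lysosomal protease) had the highest level of the 31 and its window held all 3. Cd53, a tetraspanin of blood cells, held the long run, and P2ry12, the gene with the clearest regional difference, held none of them. These 3 are printed from 250 bases before to 30 after the start, 5′ to 3′ on the strand of the gene, with matches on either strand in capitals. A match describes letters only.
Ctss, chr3:95526536-95526815, plus strand: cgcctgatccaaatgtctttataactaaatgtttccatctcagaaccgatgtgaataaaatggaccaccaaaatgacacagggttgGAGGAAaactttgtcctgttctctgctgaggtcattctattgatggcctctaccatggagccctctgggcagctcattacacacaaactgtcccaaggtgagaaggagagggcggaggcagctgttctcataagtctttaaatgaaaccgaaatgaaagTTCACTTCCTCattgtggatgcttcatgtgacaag
Cd53, chr3:106790120-106790399, minus strand: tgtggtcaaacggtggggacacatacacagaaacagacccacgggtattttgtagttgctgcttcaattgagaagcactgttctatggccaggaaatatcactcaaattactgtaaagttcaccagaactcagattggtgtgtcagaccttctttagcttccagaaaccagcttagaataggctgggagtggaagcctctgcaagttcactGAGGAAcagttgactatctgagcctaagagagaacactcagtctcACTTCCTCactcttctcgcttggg
P2ry12, chr3:59262956-59263235, minus strand: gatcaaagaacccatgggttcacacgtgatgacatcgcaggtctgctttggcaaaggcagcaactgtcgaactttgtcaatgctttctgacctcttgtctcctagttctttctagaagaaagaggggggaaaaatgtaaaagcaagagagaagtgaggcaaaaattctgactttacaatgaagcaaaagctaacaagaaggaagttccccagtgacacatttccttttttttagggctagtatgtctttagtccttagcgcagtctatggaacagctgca

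At 30 days the dominant feature of the summed level of these genes was a difference between pools of mice, larger than that between the medians of the regions. The 31 genes summed to 536 to 8121 CPM over the 22 libraries, 15.1-fold from the lowest to the highest. At 30 days the ONH sums were 927, 553, 637, 2475, 1852, 981 and 6905 CPM in replicates 1 to 7. The ONP sums of the same replicates were 919, 741, 604, 2692, 6161, 704 and 8121 CPM. Replicates 4, 5 and 7 were thus the highest 3 in both regions, and the same 3 pools held the highest 3 values of 22 of the 31 genes in the ONH and of 27 of the 31 in the ONP. ONH replicate 7 alone was the highest ONH library for 28 genes. At 7 days the ONP libraries were close together, with 3338, 3764, 2975 and 4972 CPM in libraries 1, 2, 5 and 6. The ONH libraries at 7 days spread from 536 CPM in library 3, which was the lowest for 28 of the genes, to 2359, 2155 and 4263 CPM in libraries 1, 5 and 6. The 4 ONP libraries at 7 days lay above 5 of the 7 ONP libraries at 30 days and below the 2 highest of them, so the ranges of the days overlapped.

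**Figure D1:**
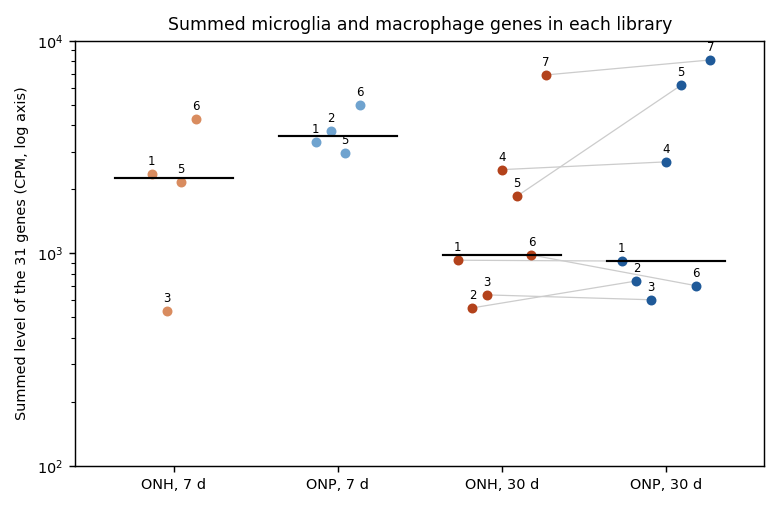
Summed level of the 31 genes in each library (CPM, log axis) for the 4 groups. Points are libraries marked by their number, bars are group medians and grey lines join the ONH and ONP of the same pool at 30 days; replicates 4, 5 and 7 are the highest 3 in both regions, from 1852 to 8121 CPM.

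Of the 28 genes with counts in every library, 26 differed by more than 10-fold between their highest and lowest library. The 2 others were Sall1 and Lgmn. Sall1, a zinc finger transcription factor that keeps microglia in their resting identity (chr8:89027235-89044162, minus strand, GRCm38), lay between 30.3 and 45.8 CPM in all 22 libraries, 1.51-fold. Its means were 37.6 ± 5.02 CPM (SD, n = 4) in the ONH and 37.8 ± 2.57 CPM (SD, n = 4) in the ONP at 7 days, and 36.2 ± 5.03 CPM (SD, n = 7) and 36.8 ± 4.59 CPM (SD, n = 7) at 30 days. In the ONH replicate 7 at 30 days, where the summed level was highest, it was 35.7 CPM, and in the ONH library 3 at 7 days, where it was lowest, it was 33.4 CPM. Sall1 therefore did not follow the other genes across libraries, and its level did not mark the libraries in which they were high. Lgmn (legumain, a lysosomal endopeptidase, chr12:102394084-102439813, minus strand) followed them weakly, from 134 to 572 CPM or 4.27-fold. Cd33, a sialic acid receptor, reached from 0.100 CPM, which was 2 counts, to 37.3 CPM.

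Per length of exon, the levels were led by lysosomal genes. Ctss had a mean of 466 CPM per kb over the 22 libraries, lysozyme 2 (Lyz2) 305 CPM per kb and Lgmn 131 CPM per kb. They were followed by the adaptor Tyrobp with 68.3 CPM per kb, the lysosomal protein Cd68 with 50.5 CPM per kb and the adaptor Fcer1g with 46.0 CPM per kb. Csf1r and Tmem119 came next, with 42.9 and 42.2 CPM per kb. The order of these neighbours was not tested, and levels varied widely over libraries, with an SD of 58.1 CPM per kb for Csf1r in the ONP at 30 days. The lowest levels were those of Mrc1 and Cd163, the scavenger receptors of perivascular and meningeal macrophages, with 0.264 and 0.141 CPM per kb. Cd163 was at or below 3 counts in 7 libraries and at 0 in 5 of them, and Mrc1 was at 0 in 1 library, the ONH library 3 at 7 days. Reads of Lyz2 can be shared with its near copy Lyz1, whose mean was 1.74 CPM against 401 CPM for Lyz2. Csf1r shares 873 of its 5774 exonic bases with Hmgxb3 on the opposite strand, Cx3cr1 shares 78 bases with Gm33858 and P2ry12 shares 9 with Med12l, and whether the counts used strand was not given in the sources used here.

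**Figure D2:**
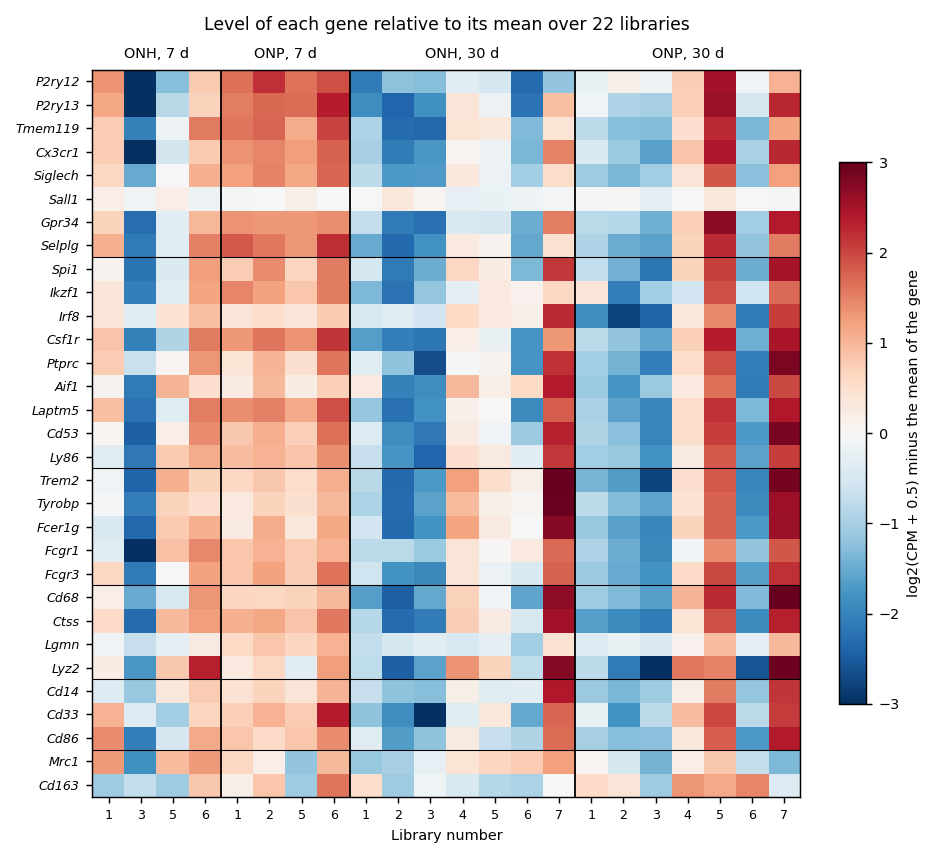
Level of each of the 31 genes in the 22 libraries as log2(CPM + 0.5) minus the mean of that gene, with colours limited at -3 and 3, grouped by region and day and by the roles used in the text. Rows move together by library, with ONH replicate 7 and ONP replicates 5 and 7 high at 30 days and ONH library 3 low at 7 days, while Sall1 stays pale throughout.

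Whether the ONH and the ONP differed was asked first at 30 days, where libraries of the same number were taken as pairs. P2ry12 (chr3:59216272-59262871, minus strand), the ADP receptor, was lower in the ONH. Its ONH levels were 3.37, 6.56, 6.28, 12.6, 10.9, 2.80 and 6.69 CPM in replicates 1 to 7. Its ONP levels were 13.9, 17.9, 14.2, 27.1, 93.8, 14.8 and 33.6 CPM. Every ONH library lay below every ONP library, the ONH was lower in 7 of 7 pools, and the log2 fold change was -2.08 ± 0.47 (SE), with an adjusted p of 0.00222 by edgeR's quasi-likelihood test. It was the single gene of the 31 called without the pairing, whereas 41.8% of 15133 genes tested were called in this comparison. It was also the only gene of the 31 whose regions did not overlap, against 8.04% of all genes tested with every ONH library below every ONP library. The median log2 fold change of the 31 genes was -0.65, beside -0.01 for all genes tested, and 24 of the 31 were negative. Single libraries decided this median, which was -1.23 without ONH replicate 7, -0.26 without ONP replicate 5 and -0.00067 without ONP replicate 7.

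With the pool as a block, 12 of the 31 genes were called, 11 lower and 1 higher in the ONH. Over all genes tested the same fit called 22.3% lower and 22.1% higher in the ONH. The median of the 31 was then -0.34, beside -0.02 for all genes, and -0.04 without pool 5. Across 8 fits with the block, using all pools or leaving out each pool in turn, 7 genes were called every time, namely Csf1r, Cx3cr1, Gpr34, Lgmn, P2ry12, P2ry13 and Selplg. Over all genes the fit of all pools called 6717 of 15133 and the others 5798 to 6460. How many of all genes were called in all 8 fits is not given here, so the 7 have no share beside them. The other calls were less stable, with Cd33 called in 6 of the 8 fits, Cd68 and Tmem119 in 5, Irf8 in 4 and Laptm5 in 2.

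Genes of resting microglia made up 6 of the 11 lower calls, 4 of them receptors. P2ry13, another ADP receptor beside P2ry12 on the chromosome, had 1.21, 2.01 and 16.3 CPM as lowest, median and highest ONH level at 30 days. Its ONP levels were 4.00, 7.61 and 53.0 CPM, so the ranges overlapped, but the ONH was lower in 7 of 7 pools (log2 fold change with the block -1.57 ± 0.27, SE, edgeR adjusted p = 0.000898). Cx3cr1 had 16.3, 35.3 and 202 CPM in the ONH and 22.5, 51.4 and 385 CPM in the ONP, and was lower in the ONH of 7 of 7 pools. Its log2 fold change with the block was -0.83 ± 0.24 (SE, edgeR adjusted p = 0.0147). Selplg, the P-selectin ligand, had 13.3, 24.2 and 95.4 CPM in the ONH and 22.5, 36.2 and 331 CPM in the ONP, again lower in 7 of 7 pools. In these 3 genes replicates 4, 5 and 7 held the highest levels of each region, and the direction within the pools was the same. Gpr34, a lysophosphatidylserine receptor, had 1.76, 5.96 and 30.6 CPM in the ONH and 3.38, 5.57 and 69.2 CPM in the ONP and was lower in 6 of 7 pools. Tmem119, a membrane protein that marks microglia, had 11.9, 32.4 and 84.9 CPM in the ONH and 24.1, 36.6 and 301 CPM in the ONP and was lower in 6 of 7 pools. Siglech did not pass the test, with a log2 fold change with the block of -0.44 (edgeR adjusted p = 0.176), and Sall1 had 0.01. Of these 8 genes, 6 were called lower with the block and 1 without it.

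Among the genes of myeloid identity, Csf1r, the receptor for the growth factors Csf1 and Il34, was lower in the ONH. Its lowest, median and highest levels at 30 days were 32.1, 45.8 and 357 CPM in the ONH and 48.2, 82.9 and 800 CPM in the ONP. The regions overlapped because of the pools, and within pools the ONH was lower in 7 of 7 (log2 fold change with the block -0.93 ± 0.22, SE, edgeR adjusted p = 0.00582). Laptm5, a lysosomal membrane protein of blood cells, had 16.9, 36.1 and 289 CPM in the ONH and 20.6, 41.4 and 434 CPM in the ONP, and its adjusted p with the block was 0.0488. Irf8 (chr8:120736358-120756694, plus strand) went the other way. Its ONH levels were 21.1, 23.1, 19.7, 44.9, 36.7, 33.0 and 141 CPM in replicates 1 to 7, and its ONP levels were 7.87, 3.98, 5.24, 37.0, 81.7, 6.48 and 126 CPM. It was higher in the ONH of 6 of 7 pools, by the most in replicates 1, 2, 3 and 6, where the other genes were low, and lower only in replicate 5. The log2 fold change with the block was 1.09 ± 0.40 (SE, edgeR adjusted p = 0.0425), and without the block 0.32 (adjusted p = 0.758). The other 6 identity genes, Spi1, Ikzf1, Ptprc, Aif1, Cd53 and Ly86, did not pass in either fit, with log2 fold changes with the block from -0.61 (Ikzf1) to 0.43 (Aif1).

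**Figure D3:**
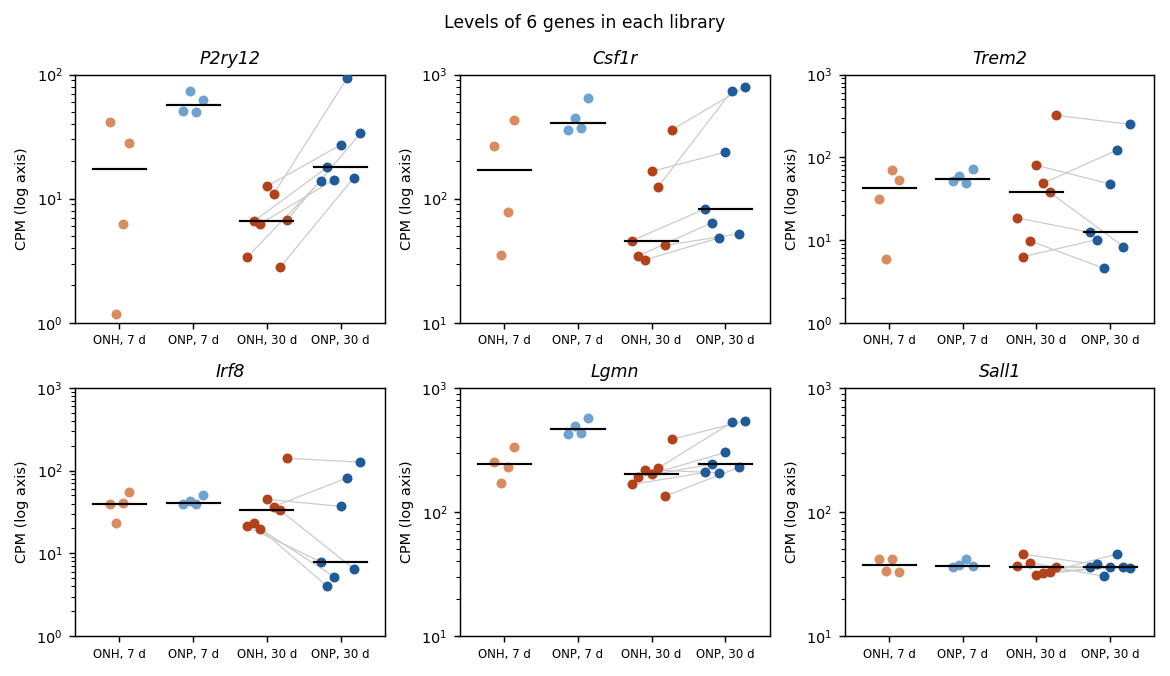
Levels of P2ry12, Csf1r, Trem2, Irf8, Lgmn and Sall1 in each library (CPM, log axis) for the 4 groups, with group medians as bars and grey lines joining the regions of a pool at 30 days. P2ry12 is lower in the ONH of all 7 pools, Irf8 is higher in the ONH of 6 of 7, and Sall1 is flat between 30.3 and 45.8 CPM.

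None of the 5 genes of ITAM signalling and Fc receptors was called in either fit at 30 days. Trem2, a lipid receptor, had 6.30, 37.7 and 320 CPM as lowest, median and highest level in the ONH and 4.56, 12.4 and 250 CPM in the ONP. It was higher in the ONH of 5 of 7 pools, and its log2 fold change with the block was 0.45 ± 0.34 (SE, edgeR adjusted p = 0.292). Tyrobp had 5.22, 29.5 and 220 CPM in the ONH and 7.06, 16.1 and 167 CPM in the ONP. The remaining log2 fold changes with the block ran from -0.16 (Fcgr3) to 0.38 (Fcgr1).

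The lysosomal genes were divided. Lgmn had 134, 203 and 384 CPM as lowest, median and highest level in the ONH and 207, 243 and 543 CPM in the ONP, was lower in the ONH of 6 of 7 pools, and had a log2 fold change with the block of -0.48 ± 0.13 (SE, edgeR adjusted p = 0.0132). Cd68 had 5.69, 11.1 and 216 CPM in the ONH and 10.1, 15.5 and 401 CPM in the ONP, and was lower in 6 of 7 pools (log2 fold change with the block -0.74 ± 0.24, SE, edgeR adjusted p = 0.0279). Both had their highest ONH level in replicate 7. Ctss had 76.1, 273 and 2172 CPM in the ONH and 86.2, 120 and 1921 CPM in the ONP, with a log2 fold change with the block of 0.16 (edgeR adjusted p = 0.679). Lyz2 had 38.7, 125 and 1434 CPM in the ONH and 23.2, 124 and 1642 CPM in the ONP and did not pass (adjusted p = 0.472). Of the innate surface receptors Cd33 was called lower (log2 fold change with the block -1.21 ± 0.39, SE, edgeR adjusted p = 0.0252) and lay lower in the ONH of 7 of 7 pools, while Cd14, the co-receptor for endotoxin, and Cd86, a costimulatory ligand, did not pass. Mrc1 and Cd163 had log2 fold changes with the block of 0.77 and -1.86 and did not pass. In all, 6 of the 31 genes were lower in the ONH of every pool, and 19.1% of all genes tested were too, so this count lay near that of the table as a whole.

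**Figure D4:**
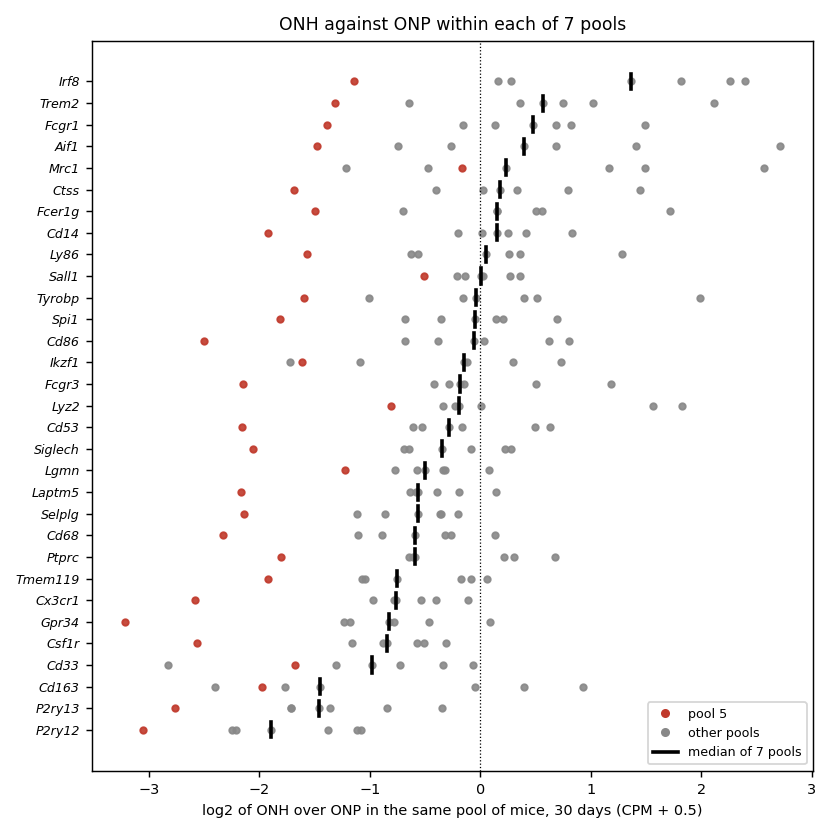
Difference between ONH and ONP within each of the 7 pools at 30 days for the 31 genes, as log2 of the ratio of CPM + 0.5, ordered by the median of the pools (black bars). Pool 5 (red) is the lowest point for most genes; P2ry12 is below 0 in all 7 pools, from -3.05 to -1.08, and Irf8 above 0 in 6.

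Pool 5 stood apart in this comparison. Its ONP library had 6161 CPM of the 31 genes and its ONH library 1852 CPM, a log2 ratio of -1.73, whereas the other 6 pools lay between -0.42 and 0.48. The summed level was lower in the ONH of 4 of 7 pools. Ratios between genes within a library also differed between regions and pools. Irf8 relative to Csf1r had a lowest, median and highest ratio of 0.271, 0.461 and 0.787 in the ONH and 0.0620, 0.110 and 0.158 in the ONP at 30 days, with no overlap. Trem2 relative to Csf1r was 0.182, 0.404 and 0.897 in the ONH and 0.0947, 0.160 and 0.313 in the ONP, with overlap. P2ry12 relative to Csf1r was 0.0187, 0.0757 and 0.195 in the ONH and 0.0420, 0.167 and 0.295 in the ONP, also with overlap. The ratios also differed between the pools that were high in the sum, replicates 4, 5 and 7, and the others, but not alike in both regions. P2ry12 relative to Csf1r was 0.114, 0.127 and 0.0420 in these 3 in the ONP, against 0.167 to 0.295 in the other 4, and 0.0757, 0.0867 and 0.0187 in the ONH, where it overlapped the others (0.0666 to 0.195). Irf8 relative to Csf1r was 0.271 to 0.395 in these 3 in the ONH, below the 0.461 to 0.787 of the others, and 0.110 to 0.158 in the ONP, overlapping and mostly above the others (0.0620 to 0.124). Tmem119 relative to Csf1r had similar medians, 0.508 in the ONH and 0.406 in the ONP. These ratios were chosen after the levels were seen and carry no test.

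At 7 days the same question was asked with 4 libraries a region. They were not paired, since the column numbers differed between the regions and a shared number was not stated to mean shared mice. Lgmn was lower in the ONH, with 252, 171, 231 and 337 CPM in ONH libraries 1, 3, 5 and 6 and 424, 497, 435 and 572 CPM in ONP libraries 1, 2, 5 and 6. The groups did not overlap, and the log2 fold change was -0.93 ± 0.20 (SE, edgeR adjusted p = 0.0134). It was the 1 call among the 31 genes, while 13.2% of 14752 genes tested were called. The call rested on a narrow margin, since without ONP library 6 the adjusted p was 0.0501. With a block on the numbers present in both regions (1, 5 and 6), 879 of 14917 genes were called and 0 of the 31. Lgmn then had a log2 fold change of -0.77 (edgeR adjusted p = 0.064). The same libraries called none of the 31 without the block either. P2ry12 had 41.4, 1.19, 6.29 and 28.1 CPM in the ONH and 51.0, 74.3, 50.3 and 62.6 CPM in the ONP. Its groups did not overlap either, but the spread within the ONH was large and the log2 fold change of -1.62 ± 0.76 (SE) did not pass (edgeR adjusted p = 0.186). P2ry13, Cx3cr1, Gpr34 and Siglech were likewise lower in every ONH library than in every ONP library and did not pass, with log2 fold changes from -1.75 (P2ry13) to -1.10 (Siglech). In total 6 of the 31 had every ONH library below every ONP library, against 11.9% of all genes tested. The median log2 fold change of the 31 was -0.77, beside 0.07 for all genes, and 28 of the 31 were negative. Without ONH library 3 the median was -0.41 and without ONH library 6 it was -1.19.

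Irf8 at 7 days had 39.3, 23.1, 40.6 and 55.7 CPM in the ONH and 38.9, 43.0, 39.1 and 51.3 CPM in the ONP, with a log2 fold change of -0.09. Relative to Csf1r it had a ratio of 0.130 to 0.657 in the ONH and 0.0797 to 0.108 in the ONP, again without overlap. Ctss had 566, 75.4, 738 and 908 CPM in the ONH and 793, 844, 684 and 1129 CPM in the ONP and did not pass (edgeR adjusted p = 0.528). Csf1r had 265, 35.2, 77.8 and 427 CPM in the ONH and 360, 442, 372 and 644 CPM in the ONP (log2 fold change -1.16 ± 0.60, SE, edgeR adjusted p = 0.23). In these 3 genes the lowest ONH value was that of library 3.

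The change from 7 to 30 days was tested within each region. In the ONP the fitted levels of 25 of the 31 genes were lower at 30 days, with a median log2 fold change of -0.49 beside -0.01 for all genes, and none was called, although 17.0% of 15491 genes tested were. At an unadjusted p under 0.05 there was 1 gene of the 31 by edgeR, against 5043 of all genes, and DESeq2 called 0 of them, against 3711 of all genes. The median was -0.82 without ONP replicate 5 and -0.91 without ONP replicate 7 at 30 days, -0.21 without ONP library 6 at 7 days, and between -0.58 and -0.30 without each of the others. The 8 genes of resting microglia all had negative fold changes, with a median of -0.90, from -1.17 (Selplg) to -0.07 (Sall1). The ONP replicate 5 at 30 days decided several of them. Without it P2ry12 (log2 fold change -1.56, edgeR adjusted p = 0.00221), Siglech (-1.60, 0.0403) and Tmem119 (-1.81, 0.0239) were called lower at 30 days. Over all genes, 1439 to 3214 were called in the ONP when each library was left out in turn. The number for the fit without ONP replicate 5 is not given here, so these calls have no share beside them. limma-voom with sample quality weights called 7 genes lower, namely Fcgr1, Lgmn, P2ry12, P2ry13, Selplg, Siglech and Tmem119, and the same fit called 11.6% of all genes tested lower. The genes of ITAM signalling had a median of 0.00.

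In the ONH none of the 30 genes tested was called and 0% of 15668 genes were. By edgeR 1 of the 30 and 2179 of all genes had an unadjusted p under 0.05, and DESeq2 called 446 genes, with 0 of the 31 among them. The median log2 fold change of the 30 genes was -0.21, beside -0.02 for all genes. Its direction was not stable, with 0.10 without ONH library 6 at 7 days, -0.58 without ONH library 3 at 7 days, -0.92 without ONH replicate 7 at 30 days, and -0.31 to -0.09 without each of the others. The 8 genes of resting microglia were again all negative, with a median of -0.70, and P2ry12 had the lowest value (-1.44 ± 0.66, SE, edgeR adjusted p = 0.357). The 5 ITAM signalling and Fc receptor genes had a median of 0.58, from -0.22 (Fcgr3) to 0.88 (Trem2). Cd163 did not pass the filter on low counts in this comparison. The difference between the regions in their change over time was tested by the interaction of region and day, which called none of the 31 genes and 0.543% of 16748 genes. The smallest adjusted p among the 31 was 0.728 (Lgmn), and 0 of the 31 had an unadjusted p under 0.05 by edgeR, against 2103 of all genes. DESeq2 called 0 of them, against 409 of all genes. These comparisons share their libraries with those between regions.

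Replicates 4, 5 and 7 were also the highest 3 in both regions for the sum of 40 other myeloid genes. This list, with the complement genes C1qb and C1qc among its most abundant, summed to 847, 486, 545, 1844, 1306, 711 and 5235 CPM in ONH replicates 1 to 7 at 30 days. In the ONP the same sums were 503, 444, 386, 1526, 4277, 371 and 6558 CPM. At 30 days 33 of the 38 tested had negative log2 fold changes for the ONH against the ONP (median -0.58), 1 was called higher and 0 lower, and with the block 9 were called lower and 1 higher. The higher call was Olfml3, a secreted olfactomedin-like protein, with 103, 195 and 212 CPM as lowest, median and highest level in the ONH and 28.8, 37.9 and 173 CPM in the ONP (log2 fold change 1.34 ± 0.38, SE, edgeR adjusted p = 0.00996). Olfml3 did not follow these pools in the ONH, where replicates 4, 5 and 7 had 141, 159.6 and 199 CPM.

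Of 16 genes of the disease-associated state of microglia, 14 were tested at 30 days and 2 were called higher in the ONH and 1 lower. The higher calls were the tetraspanins Cd63 and Cd9 (log2 fold changes 0.55 and 0.42). With the block 3 were called higher, Cd63, Cd9 and Apoe (0.38, edgeR adjusted p = 0.0168), and 2 lower, Gpnmb and Lpl. The most abundant gene of the list, Apoe (19567 to 60817 CPM), is also a major transcript of astrocytes, so the list is not particular to microglia. Gpnmb, a glycoprotein of lipid-laden macrophages, was called lower in the ONH at 30 days (-0.98 ± 0.36, SE, edgeR adjusted p = 0.0366) and at 7 days (-0.76 ± 0.22, SE, edgeR adjusted p = 0.0447). Lpl, lipoprotein lipase, was lower at 7 days (-1.57 ± 0.44, SE, edgeR adjusted p = 0.0421), with 3.17, 2.46, 7.06 and 8.65 CPM in the ONH and 22.4, 17.3, 13.6 and 10.8 CPM in the ONP. At 30 days its log2 fold change was -1.27 ± 1.06 (SE, edgeR adjusted p = 0.357) without the block and -1.80 ± 0.28 (SE, edgeR adjusted p = 0.000439) with it. With the block on libraries 1, 5 and 6 at 7 days, none of the list was called (smallest edgeR adjusted p = 0.0548). The highest levels of the secreted Spp1 and the protease inhibitor Cst7 were again in replicate 7 at 30 days, with 1199 and 115 CPM in the ONH and 1789 and 117 CPM in the ONP.

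Of the 7 genes of MHC class II, which presents antigen, 2 were called higher in the ONH at 7 days. H2-Aa had 22.8, 13.3, 41.3 and 78.2 CPM in the ONH against 14.4, 11.1, 7.00 and 14.9 CPM in the ONP, with 1 ONH library inside the ONP range (log2 fold change 1.74 ± 0.49, SE, edgeR adjusted p = 0.0404). H2-Ab1 was the other (1.62 ± 0.46, SE, edgeR adjusted p = 0.0425). With the block on libraries 1, 5 and 6 at 7 days, 1 gene of the list was called higher. At 30 days none of the 7 was called without the block and 4 were called higher in the ONH with it, H2-Aa, H2-Ab1, H2-Eb1 and the invariant chain Cd74, with log2 fold changes of 0.77 to 1.29. Border-associated macrophage genes were low, with sums of 27.0 to 142 CPM over all libraries. Their most abundant gene in each group was Maf, a transcription factor, which was higher in the ONH at 30 days (1.14 ± 0.22, SE, edgeR adjusted p = 0.000836). F13a1, the clotting factor subunit of such macrophages, was lower there (-1.27 ± 0.48, SE, edgeR adjusted p = 0.046), a call that was lost with the block (edgeR adjusted p = 0.109). With the block 2 genes of this list were called higher and 0 lower, Maf and Ms4a7 (1.16, edgeR adjusted p = 0.0299). Markers of blood leukocytes were low in sum. The 12 monocyte and neutrophil genes summed to 0.338 to 13.01 CPM. Of the neutrophil genes S100a8, Retnlg, Ly6g, Camp and Ngp were at 0 in all ONP libraries at 7 days. Others of the list had counts there. Cxcr2 had 12, 5, 3 and 1, S100a9 1, 0, 6 and 0 and Mmp9 0, 0, 8 and 0 in libraries 1, 2, 5 and 6. In the ONH at 7 days Camp had 90 counts in library 5. The 11 lymphocyte genes summed to 1.86 to 21.6 CPM, highest in replicate 7 at 30 days in both regions, and 3 of them were tested at 30 days. Cd3e, of the T cell receptor complex, was called lower in the ONH (log2 fold change -1.37, edgeR adjusted p = 0.0374, and 0.00495 with the block), with 4 to 53 counts in the ONH and 24 to 77 in the ONP. Nkg7, a granule protein of cytotoxic lymphocytes, was called higher in the ONH with the block only (1.52, edgeR adjusted p = 0.0282), with 22 to 130 counts in the ONH and 1 to 153 in the ONP.

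Ligands of microglial receptors were measured in the same libraries. Csf1, the growth factor of Csf1r, was lower in the ONH at 30 days, with 28.3, 52.3 and 87.9 CPM as lowest, median and highest against 93.6, 117 and 150 CPM in the ONP (log2 fold change -1.21 ± 0.21, SE, edgeR adjusted p = 0.00036). Il34, its other ligand, was higher in the ONH, with 23.2, 29.4 and 37.9 CPM against 10.5, 16.4 and 18.3 CPM (0.97 ± 0.15, SE, edgeR adjusted p = 0.000126). Neither gene overlapped between the regions at 30 days, and at 7 days each was called in the same direction (-1.25 for Csf1 and 1.43 for Il34). Tgfb2, of a factor family that maintains microglia, was higher in the ONH at 30 days (1.51 ± 0.21, SE, edgeR adjusted p = 4.78e-05) and at 7 days (0.99 ± 0.20, SE, edgeR adjusted p = 0.00985). With the block on libraries 1, 5 and 6 at 7 days, 1 ligand was called higher and 1 lower. Cx3cl1, the ligand of Cx3cr1, and Cd200, which restrains myeloid cells, were lower in the ONH at 30 days (-0.88 and -0.70, edgeR adjusted p = 0.00716 and 0.00246). At 7 days neither passed (-0.20 and 0.28, edgeR adjusted p = 0.63 and 0.691), and Cd200 had 26.3, 15.9, 50.5 and 83.0 CPM in the ONH and 33.4, 33.8, 36.6 and 42.8 CPM in the ONP. None of the ligands was called for a change over time.

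Oligodendrocyte genes were also high in the pools that were high in the 31 genes. The 10 oligodendrocyte genes, led by Mbp, summed to 32848, 32988 and 41190 CPM in ONH replicates 4, 5 and 7 at 30 days and to 13870 to 18973 CPM in the other 4. In the ONP they summed to 67854, 86196 and 58720 CPM in replicates 4, 5 and 7 and to 26364 to 54954 CPM in the others. The 12 astrocyte genes summed to 26981, 17297 and 23129 CPM in ONP replicates 4, 5 and 7, below the 32859 to 38793 CPM of the other 4, but in the ONH the same replicates had 18128, 21939 and 20039 CPM and overlapped the 19033 to 29674 CPM of the others. Globin and other red blood cell genes summed to 2571 CPM in ONH replicate 7, against 49.2 to 582 CPM in the other ONH libraries at 30 days, and replicates 4 and 5 (234 and 132 CPM) lay below replicates 1 and 3 (408 and 582 CPM). In the ONP the same sums were 198, 120, 38.5, 135, 280, 45.8 and 414 CPM in replicates 1 to 7, highest in replicates 7 and 5. MHC class II genes summed to 472, 336 and 775 CPM in ONH replicates 4, 5 and 7 and to 74.0 to 207 CPM in the others. In the ONP these sums were 341, 268 and 365 CPM against 62.9 to 176 CPM. Endothelial genes summed to 57.4, 130 and 55.9 CPM in ONP replicates 4, 5 and 7 and to 15.7 to 29.0 CPM in the others. In the ONH the endothelial sums overlapped, with 54.4 CPM in replicate 7. The part of these differences in the levels of the 31 genes was not tested.

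The same libraries separated the regions by myelin. The 10 oligodendrocyte genes summed to 19299 to 36832 CPM in the ONH and 82576 to 110811 CPM in the ONP at 7 days, without overlap, and all 10 were called lower in the ONH, with a median log2 fold change of -1.86. At 30 days 8 of the 10 were called lower. Over time in the ONP 8 of the 10 oligodendrocyte genes and 7 of the 10 endothelial genes were called lower at 30 days, with medians of -0.84 and -2.27, beside the median of -0.49 of the 31 microglia and macrophage genes. The endothelial genes summed to 157 to 228 CPM in the ONP at 7 days and to 15.7 to 130 CPM at 30 days. How far these other RNAs bear on the microglia and macrophage genes was not tested.

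**Figure D5:**
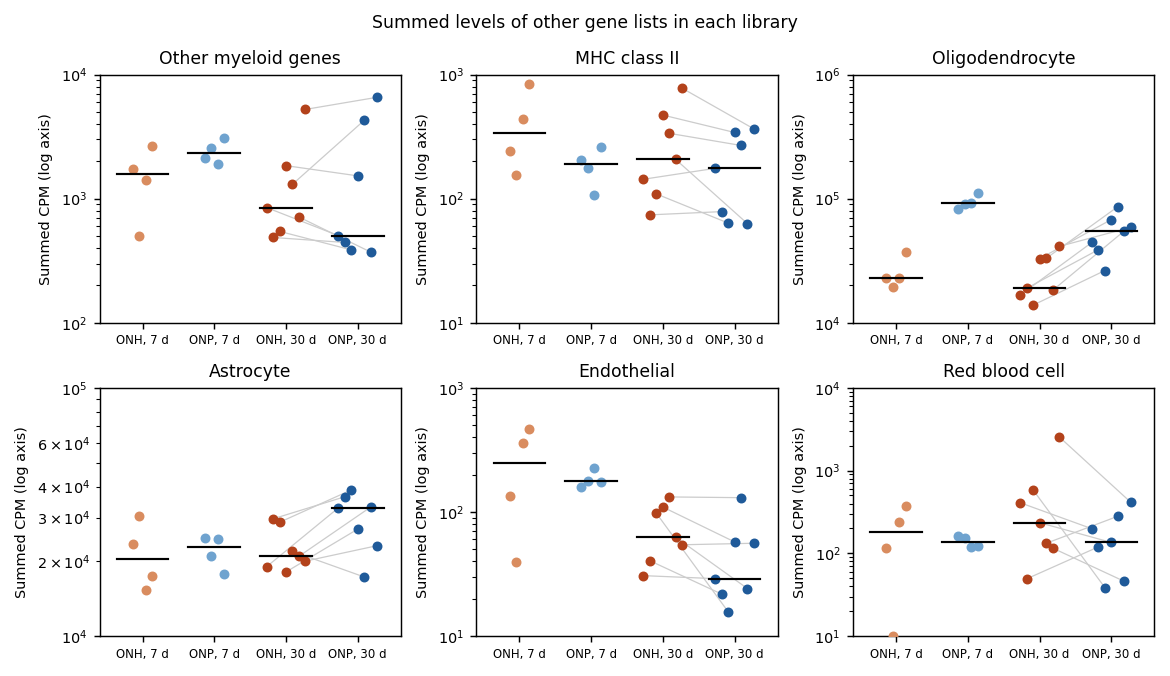
Summed levels of 6 other gene lists in each library (CPM, log axis) for the 4 groups, with group medians as bars and grey lines joining the regions of a pool at 30 days. Other myeloid genes spread over pools like the 31 genes, oligodendrocyte genes separate the regions at 7 days, and red blood cell genes reach 2571 CPM in ONH replicate 7.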

How the data were processed

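Estimated counts per gene, summed from Salmon and rounded, were deposited by the authors as a single table, made with STAR 2.6.1d, Salmon 0.14.2 and the mm10 build per the labels and, per the study's methods, Ensembl annotation. Its 22 columns of whole counts were used, and 0 per-sample columns were unmapped. The deposited table of variance-stabilised log2 values was not used. The members and gene lists were chosen with earlier results of these data known. Genes were filtered by group (filterByExpr), scaled by TMM and tested with edgeR 4.0.16 (quasi-likelihood, Benjamini-Hochberg over all genes tested, threshold 0.05) in R 4.3.3, pairwise and for the interaction. The code was tested on simulated data. ONH and ONP replicates of the same number at 30 days were taken to come from the same mice, which the labels do not state. They deviated together across genes (r = 0.107 to 0.547 in all 7 pairs). In 4 of the pairs an ONP library of another number correlated more closely with the ONH library, with r from 0.110 to 0.371. The correlations thus did not settle the pairing, on which calls with the block depend. Values with the pool as a block are therefore given beside the others. Genes were named by a rule: all 31 members, in full for those called, not overlapping or among the 8 highest, and the leading genes of the other lists. A leading gene of the other myeloid genes is not reported here. Coordinates and exonic lengths came from GENCODE M21. Alternatives were DESeq2 1.42.0, limma 3.58.1 (voom with quality weights), other scalings and filters, a single fit of all groups, the block and leaving out each library.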

Additional observations from a re-analysis of the deposited data

Results flagged for a closer look

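In groups of 4 to 7 libraries, 128 combinations of a gene or the sum with a group were tested for 1 library standing apart. The criterion set the gap to the next library against the range of the group, on CPM and not on log values, and 28 met it. Its nominal rate of 0.05 assumes normally distributed values. CPM here were spread over many-fold, so the number met by chance was not known. Of the 28, 23 were the ONH replicate 7 at 30 days, on the high side. They share that library, so they are not independent of each other. The sum of the 31 genes there was 6905 CPM, against 2475 CPM in the next highest library. Among identity genes it had 141 CPM of Irf8, 357 CPM of Csf1r, 40.4 CPM of Spi1, 31.2 CPM of Ptprc, 97.6 CPM of Aif1, 289 CPM of Laptm5, 79.8 CPM of Cd53 and 114 CPM of Ly86. Among receptors of resting microglia it had 202 CPM of Cx3cr1 and 30.6 CPM of Gpr34. All 5 ITAM signalling and Fc receptor genes stood apart, with 320 CPM of Trem2, 220 CPM of Tyrobp, 164 CPM of Fcer1g, 24.8 CPM of Fcgr1 and 108 CPM of Fcgr3. So did the 4 lysosomal genes, with 2172 CPM of Ctss, 1434 CPM of Lyz2, 384 CPM of Lgmn and 216 CPM of Cd68, and the 3 innate receptors, with 152 CPM of Cd14, 24.5 CPM of Cd33 and 23.1 CPM of Cd86.

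In the ONP at 30 days P2ry12 stood apart in replicate 5 (93.8 CPM, next highest 33.6 CPM), and Cd68 (401 CPM) and Lyz2 (1642 CPM) in replicate 7. At 7 days Cd33 stood apart in ONP library 6 (37.3 CPM, next highest 14.8 CPM) and Cd163 in ONH library 6 (1.32 CPM), with counts near the floor in the other 3 libraries.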

How the results depend on the processing

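Depth limits the values of Cd163, which was at or below 3 counts in 7 libraries. With estimated counts, no interval covers quantification error. Without 1 library at a time, the members called ranged from 0 to 3 in the ONP over time (3 without ONP replicate 5 at 30 days), from 1 to 6 between regions at 30 days (6 without ONH replicate 7) and from 0 to 3 between regions at 7 days (0 without ONP library 6, 3 without ONH library 6). The genes called ranged from 0 to 167 in the ONH over time (167 without ONH library 5 at 7 days), from 1439 to 3214 in the ONP, from 5671 to 6416 between regions at 30 days, from 1102 to 2379 between regions at 7 days and from 22 to 318 for the interaction (22 without ONP library 1 and 318 without ONH library 5, both at 7 days). The totals of the fits with 3 or 6 members called are not given here, so those counts have no share beside them. Between regions at 30 days Irf8 ranged from -0.34 (without ONH replicate 7) to 0.998 and Cd68 from -2.21 to 0.12 (without ONP replicate 7).

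With DESeq2 the genes called were 446 in the ONH over time, 3211 between regions at 7 days and 409 for the interaction. In a single fit of all groups they were 292 in the ONH, 1189 in the ONP and 3785 between regions at 7 days. With no filter beyond 1 count they were 2 in the ONH and 50 for the interaction. With voom weights 7 members were called in the ONP and 2 at 7 days, 55 genes for the interaction, and Laptm5 between regions at 30 days was 0.032, against -0.83 in the fit without weights. The number of all genes called with these weights at 7 days is not given here, so the 2 calls have no share beside them. The replicate block at 30 days called 12 members, and 9, 8, 10, 10, 9, 10 and 10 with pairs 1 to 7 left out. Over all genes it called 6717 of 15133 tested, and 5798 to 6460 genes with a pair left out. For the interaction a block by correlation of the 30 day pairs called 161 genes. Without the replicate 7 libraries of both regions, added after seeing the data, 2 members were called at 30 days, P2ry12 and Gpr34. The number of all genes called in that fit is not given here, so these 2 calls have no share beside them. The cause of these differences was not tested. At 7 days the numbers 1, 5 and 6 occur in both regions, and libraries of the same number correlated by r = 0.0114, 0.0278 and 0.182 in their deviations from the group means, so they were taken to share only a number; number 5 correlated better with another. A replicate block on these 3 pairs called 879 genes and 0 members, with Lgmn at -0.77 (edgeR adjusted p = 0.064), and the same 6 libraries without the block, added after seeing the data, called 913 genes and 0 members. With the block on these 3 pairs the calls at 7 days fell from 2 to 0 of the disease-associated genes (smallest edgeR adjusted p = 0.0548), from 2 to 1 of the MHC class II genes and from 3 to 2 of the ligands. Besides left-out libraries, 243 of the values recomputed with the other tools, scalings, filters and fits kept their direction and their side of the threshold (for a count, stayed within 1.5 times) and 19, all single genes, passed it in the same direction. Of the rest, 15 were labelled as moved, 1 as reversed and 1 as weaker. In the fits added after seeing the data 54 kept both and 60 passed the threshold in the same direction, while 10 were labelled as moved and 1 as weaker.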
